A study of Mus musculus with 6 samples.

Results

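The glutamate, potassium and water handling genes of astrocytes described here are 8 genes, Slc1a2, Slc1a3, Glul, Aqp4, Kcnj10, Atp1b2, Slc4a4 and Slc6a11, out of 22180 genes that could be read from a probe set with a single gene symbol. They were chosen by name, and where a gene had several such probe sets the one with the highest mean level was used. All 8 were found. The arrays measured total RNA from macrodissected brain lesions, 3 of transgenic mice and 3 of wild type mice. The transgenic mice carry a construct with which GFAP-positive astrocytes that are not dividing can be eliminated by induced apoptosis, and the labels do not give the promoter or the line. In both genotypes LPC, a lipid that strips myelin locally, was injected at 5 to 6 weeks of age, CID, the compound that sets off the ablation, followed 48 hours later, and lesions were collected 7 days after the LPC. The labels do not say whether lesions of 1 genotype were taken from different mice. The sex-linked genes described below read differently among the transgenic lesions, which places these in at least 2 mice; for the wild type lesions the spread behind the p-values may be technical.

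Astrocytes clear glutamate from synapses through sodium-coupled transporters and turn it into glutamine, which neurons take up again. They take up the potassium that active neurons release, through inwardly rectifying channels and the sodium-potassium pump, and they move water through channels held at their endfeet on blood vessels. Bicarbonate transport and GABA uptake complete this housekeeping, and its transcripts are widely used as marks of mature astrocytes. Levels below are log2 values of RMA intensities, and differences are transgenic minus wild type on that scale. Levels are compared between arrays and never between genes, because probe sets differ in how well they bind.

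The promoters of 3 of the genes are shown because these genes had the 3 largest gaps between transgenic replicate 1 and the wild type mean among the members with a single listed start. They are the 250 bases before the RefSeq start in build GRCm38.p6, written 5′ to 3′ on the strand of the gene. The Slc1a2 window lies at chr2:102706188-102706437 (plus strand), that of Slc1a3 at chr15:8710808-8711057 (minus strand) and that of Kcnj10 at chr1:172340960-172341209 (plus strand). Capitals mark CCAAT, the core of the CCAAT box, and GGGCGG, the core of the GC box, on either strand; no such matches overlapped.
Slc1a2: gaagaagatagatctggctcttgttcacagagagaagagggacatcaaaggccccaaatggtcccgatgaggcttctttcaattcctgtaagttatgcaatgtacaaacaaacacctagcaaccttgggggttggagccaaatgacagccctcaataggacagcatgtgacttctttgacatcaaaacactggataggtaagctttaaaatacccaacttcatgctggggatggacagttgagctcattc
Slc1a3: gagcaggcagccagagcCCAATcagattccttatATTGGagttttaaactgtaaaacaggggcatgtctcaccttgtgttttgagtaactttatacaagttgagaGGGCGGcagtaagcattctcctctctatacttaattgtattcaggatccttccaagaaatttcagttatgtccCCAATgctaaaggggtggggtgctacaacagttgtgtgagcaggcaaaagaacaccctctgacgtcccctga
Kcnj10: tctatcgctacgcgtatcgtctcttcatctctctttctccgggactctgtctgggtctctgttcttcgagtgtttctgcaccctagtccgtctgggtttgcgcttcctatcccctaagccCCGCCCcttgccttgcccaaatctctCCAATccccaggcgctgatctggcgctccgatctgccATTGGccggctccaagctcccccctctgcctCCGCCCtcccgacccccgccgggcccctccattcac
The Slc1a2 window held neither motif and was 44.8% G and C. The Slc1a3 window, also at 44.8%, held 3 CCAAT matches and 1 GGGCGG match, and the Kcnj10 window, at 62% G and C, held 2 of each. Entries were found for 6 of the 8 genes, with 7 starts in all, of which 4 held CCAAT and 5 held GGGCGG. Over all 32851 promoters of the same length, 33.8% held CCAAT and 32.7% held GGGCGG. These motifs were chosen for display after others had been searched on both strands of the same windows. Of the 7 starts, 5 held the E-box CANNTG, against 66.2% of all promoters, and the Slc1a3 start alone held the STAT motif TTCNNNGAA, against 7.02%, and the TATA motif TATAAA, against 12.4%. No start held the palindromic NFI motif or the shorter TTGGCA, the SOX motifs AACAAT and ACAAAG, the AP-1 motif TGANTCA, the CRE TGACGTCA or the NF-kB motif, which 0.703% to 16.5% of all promoters held. A match describes the letters only.

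The transgenic arrays were less alike than the wild type arrays. Over all probe sets, the Pearson correlation was 0.928 between transgenic replicates 1 and 2, 0.968 between 1 and 3 and 0.956 between 2 and 3, against 0.980 to 0.984 among wild type arrays. The median log2 level was 5.34 on transgenic replicate 2 and 5.52 to 5.59 on the other arrays. No label gives sex, but Xist, an RNA of the inactive X chromosome, stood at 4.67, 9.14 and 4.42 in transgenic replicates 1, 2 and 3, against 9.49, 9.30 and 9.30 in wild type lesions. The Y-linked Eif2s3y stood at 7.03, 3.32 and 6.80 in transgenic lesions, against 2.55, 3.13 and 2.66 in wild type lesions. Transgenic replicates 1 and 3 thus read as male and the other arrays as female.

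Compared with wild type lesions, all 8 genes had lower means in transgenic lesions, with differences from -0.51 to -0.10 and a median of -0.28, against a median of -0.01 over all 41345 probe sets. None of the 8 passed 0.05 after adjustment, with adjusted p-values in limma between 0.617 and 0.914, and no probe set of the table did, 0%. At an unadjusted p under 0.05 the count was also 0 of 8, against 8.87% of all probe sets, 4.05% lower and 4.82% higher in transgenic lesions. The groups were fully separate for 0 of 8, against 16.1% of all probe sets, 7.6% lower and 8.54% higher. The lower means rested largely on 1 array. Transgenic replicate 1 had the lowest value of all 6 arrays for each of the 8 genes, whereas transgenic replicates 2 and 3 lay inside or near the wild type range. In bulk RNA, fewer astrocytes and less RNA per astrocyte cannot be told apart.

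**Figure D1:**
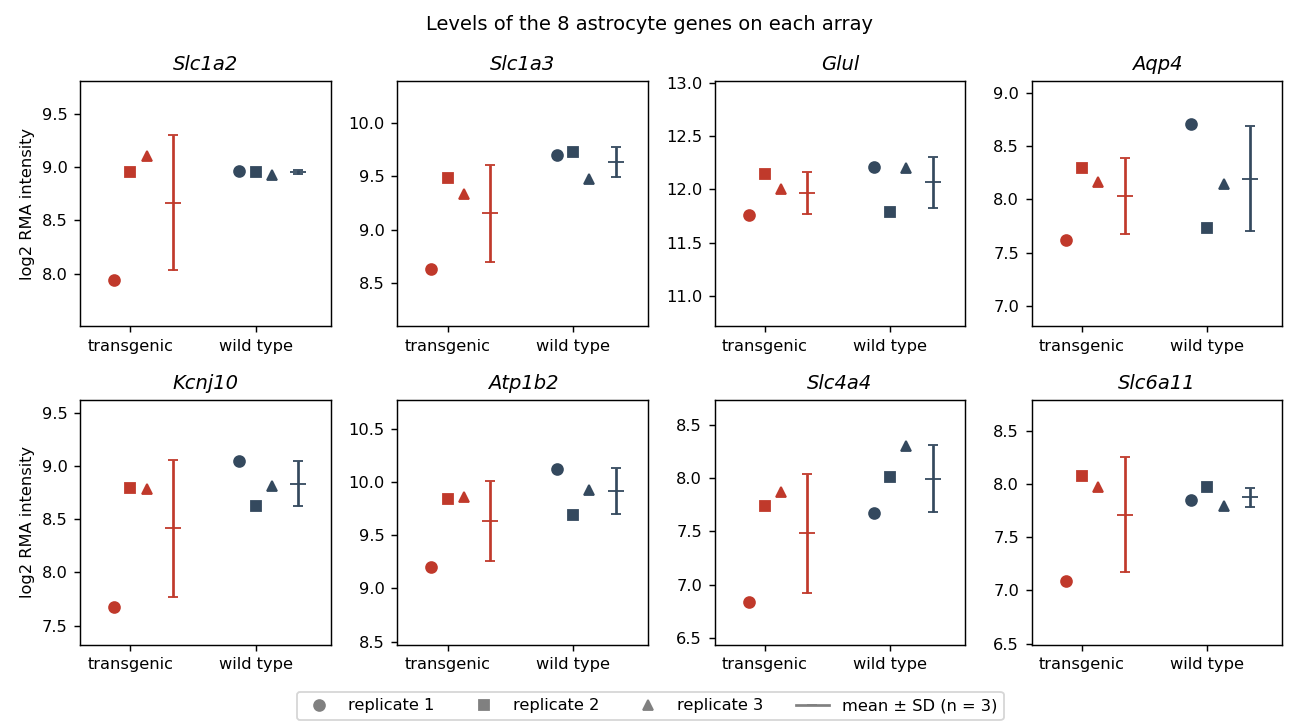
Log2 RMA intensity (vertical axes) of each of the 8 genes on the 3 transgenic arrays (red, left) and the 3 wild type arrays (dark, right), with the mean and SD of each group beside the points. Every vertical axis spans the same number of log2 units, and the circle of transgenic replicate 1 is the lowest point in all 8 panels.

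Glutamate uptake was read from Slc1a2 and Slc1a3, the main astrocytic glutamate transporters of the forebrain. Slc1a2 (probe set 17373696) stood at 7.94, 8.95 and 9.11 in transgenic replicates 1, 2 and 3, against 8.96, 8.96 and 8.93 in wild type replicates 1, 2 and 3. The wild type arrays were nearly equal, at 8.95 ± 0.02 (SD, n = 3), while the transgenic arrays were spread over more than a log2 unit, at 8.67 ± 0.63. The wild type values fell inside the transgenic range. The difference was -0.28 (SE 0.30, 95% interval -0.98 to 0.42, adjusted p in limma 0.831), and it was 0.08 (SE 0.13) without transgenic replicate 1.

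Slc1a3 (probe set 17315860), the transporter also called GLAST, stood at 8.64, 9.49 and 9.34 in transgenic lesions, against 9.70, 9.73 and 9.48 in wild type lesions. Transgenic replicate 2 lay just above wild type replicate 3, which was the only overlap between the groups. Of the 8 genes it had the smallest unadjusted p, 0.0824 in limma, with a difference of -0.48 (SE 0.24, 95% interval -1.04 to 0.08) and an adjusted p of 0.617. Without transgenic replicate 1 the difference was -0.22 (SE 0.15), and in that fit it was the lowest of the 8. It was also the only member past an unadjusted p of 0.05 after quantile normalization (0.0341) and without transgenic replicate 2 (0.0271), both in limma, with adjusted p-values of 0.513 and 0.437; in those fits 9.15% and 10.1% of all probe sets had an unadjusted p under 0.05.

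Both transporters were set against each other within each array, which cancels whatever shifts them equally. Slc1a2 minus Slc1a3 was -0.70, -0.54 and -0.23 in transgenic replicates 1, 2 and 3, against -0.74, -0.78 and -0.55 in wild type replicates 1, 2 and 3. Transgenic replicate 1, low for both genes, lay within the wild type range for this quantity, and the groups overlapped. The difference of 0.20 had an exact two-sided permutation p of 0.2 (n = 3 each), where 3 against 3 cannot go below 0.1.

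Glul encodes glutamine synthetase, which turns ammonia and glutamate into glutamine in astrocytes. Its brighter probe set (17548983) stood at 11.75, 12.15 and 12.002 in transgenic lesions, against 12.21, 11.79 and 12.20 in wild type lesions, and wild type replicate 2 was nearly as low as transgenic replicate 1. The difference was -0.10 (SE 0.18, adjusted p in limma 0.914), and 0.01 (SE 0.18) without transgenic replicate 1. A second probe set of the gene (17218349) stood at 10.88, 11.48 and 11.46 in transgenic lesions, against 11.81, 11.62 and 11.54 in wild type lesions. There the 3 transgenic values were all below the 3 wild type values, with a difference of -0.38 (SE 0.20, adjusted p in limma 0.639), so the probe sets disagreed on whether the groups overlap. Across all probe sets, 16.1% had groups that did not overlap.

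Kcnj10 encodes the inwardly rectifying potassium channel with which astrocytes buffer extracellular potassium. Kcnj10 (probe set 17219536) stood at 7.67, 8.79 and 8.78 in transgenic lesions, against 9.05, 8.63 and 8.81 in wild type lesions. Transgenic replicates 2 and 3 lay between the wild type values and replicate 1 was alone below them. Its mean was 8.42 ± 0.64 in transgenic and 8.83 ± 0.21 in wild type lesions (SD, n = 3). The difference of -0.42 (SE 0.32, adjusted p in limma 0.753) became -0.04 (SE 0.17) without transgenic replicate 1.

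Atp1b2, a beta subunit of the sodium-potassium pump that is found on glia, also acts as an adhesion molecule. Atp1b2 (probe set 17264792) stood at 9.20, 9.84 and 9.86 in transgenic lesions, against 10.12, 9.69 and 9.93 in wild type lesions. As for Kcnj10, transgenic replicates 2 and 3 lay inside the wild type range. The difference was -0.28 (SE 0.22, adjusted p in limma 0.769) and it was -0.06 (SE 0.17) without transgenic replicate 1.

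Aqp4 is the water channel of astrocyte endfeet. Aqp4 (probe set 17352862) stood at 7.62, 8.29 and 8.17 in transgenic lesions, against 8.71, 7.73 and 8.14 in wild type lesions. The wild type arrays spread the most here of the 8 genes, with an SD of 0.49, and wild type replicate 2 was nearly as low as transgenic replicate 1. The difference of -0.17 (SE 0.29, adjusted p in limma 0.904) turned to 0.04 without transgenic replicate 1 and to 0.09 without wild type replicate 1.

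Slc4a4 encodes the sodium bicarbonate cotransporter with which astrocytes regulate pH. Slc4a4 (probe set 17438832) stood at 6.84, 7.74 and 7.87 in transgenic lesions, against 7.67, 8.01 and 8.30 in wild type lesions. It had the largest mean difference of the 8, at -0.51 (SE 0.30, 95% interval -1.22 to 0.20, adjusted p in limma 0.677). Wild type replicate 1 lay below transgenic replicates 2 and 3, so the groups overlapped, and without transgenic replicate 1 the difference was -0.19 (SE 0.21).

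Slc6a11 encodes a GABA transporter carried mainly by astrocytes. Slc6a11 (probe set 17461852) stood at 7.09, 8.07 and 7.97 in transgenic lesions, against 7.85, 7.97 and 7.80 in wild type lesions. Transgenic replicate 2 was the highest of all 6 arrays and transgenic replicate 1 the lowest. The difference was -0.16 (SE 0.27, adjusted p in limma 0.899), and without transgenic replicate 1 it was 0.15 (SE 0.14).

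**Figure D2:**
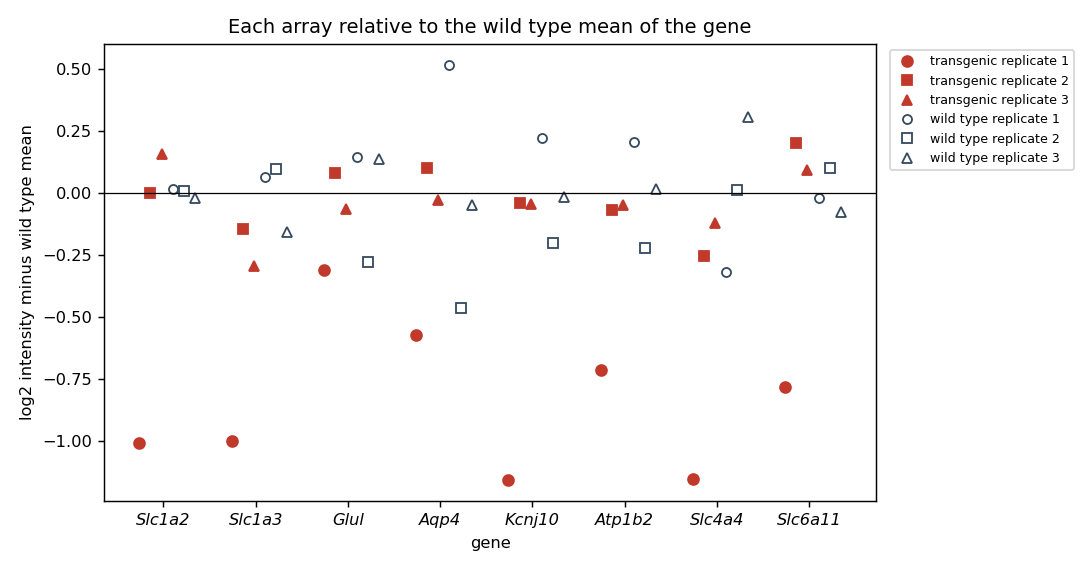
Log2 intensity of each array minus the wild type mean of the gene (vertical axis) for the 8 genes, with transgenic arrays in filled red and wild type arrays in open symbols. The filled circles of transgenic replicate 1 lie below all other points of their gene, and the squares and triangles of transgenic replicates 2 and 3 lie among or near the wild type symbols.

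The mean of the 8 genes was 8.34, 9.17 and 9.14 in transgenic replicates 1, 2 and 3, against 9.28, 9.06 and 9.20 in wild type replicates 1, 2 and 3. Transgenic replicate 1 lay below the average of transgenic replicates 2 and 3 by a median of 0.85 over the genes. The gap reached 2.17-fold for Kcnj10 and 2.13-fold for Slc1a2, and was least for Glul, at 1.25-fold. The average of transgenic replicates 2 and 3 differed from the wild type mean by -0.22 to 0.15, with a median of -0.02. Transgenic replicate 2 lay within the wild type range for 7 of the 8 genes and transgenic replicate 3 for 6. Of all 41345 probe sets, 11751 lay within it on transgenic replicate 2 and 18174 on transgenic replicate 3. Of the 5760 genes with a mean level of at least 7, the counts were 1211 and 2094. The SD over transgenic arrays was larger than the SD over wild type arrays in 6 of the 8 genes, which is near the 71.6% of all probe sets for which this held. Among female arrays alone, with 1 transgenic lesion, the 8 differences ran from -0.26 (Slc4a4) to 0.20 (Slc6a11).

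Part of the low position of transgenic replicate 1 was shared by other bright genes. It was the lowest array for 22.3% of all probe sets, but for 50.6% of the 5760 genes with a mean level of at least 7, a range that holds all 8 genes. Among those genes it lay below the average of transgenic replicates 2 and 3 by a median of 0.30, against 0.85 for the 8 genes. A gap of at least 0.5 was seen for 7 of the 8 genes and for 27.6% of the bright genes. This array was picked out from the values of the same 8 genes, so a larger gap in them follows partly from that choice. After quantile normalization the median gap was -0.70 over the 8 genes and -0.16 over the bright genes. In that setting 7 of the 8 genes were still lowest on this array, against 42.0% of the bright genes and 25.8% of all probe sets.

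**Figure D3:**
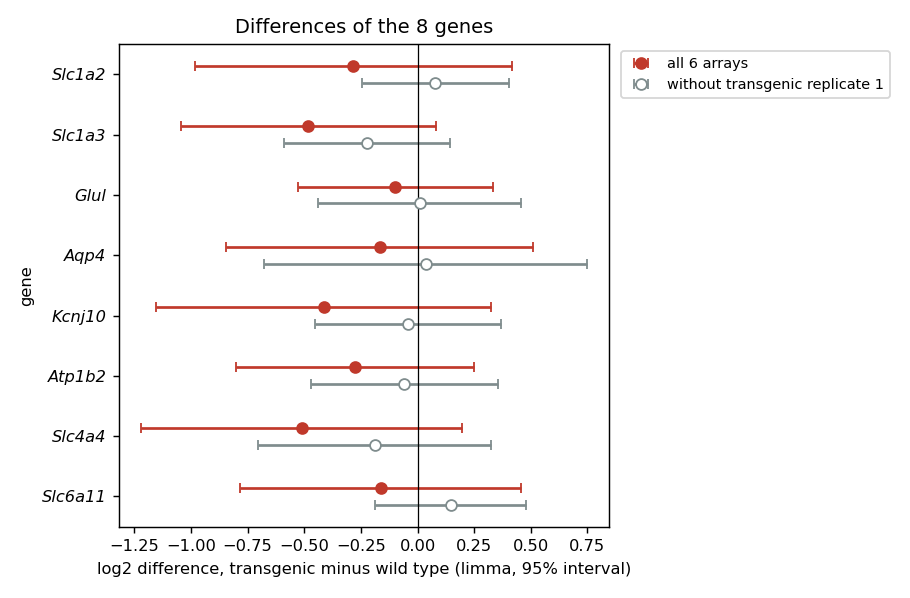
Log2 difference, transgenic minus wild type (horizontal axis), with its 95% interval from limma for each of the 8 genes, with all 6 arrays (red) and without transgenic replicate 1 (grey, open). With all arrays every point lies left of 0 and every interval includes 0; without transgenic replicate 1 the points lie between -0.22 and 0.15.

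Markers of astrocyte identity, a list of 10 genes all measured, were low on the same array. Their mean was 8.12, 8.68 and 8.54 in transgenic replicates 1, 2 and 3, against 8.54, 8.54 and 8.61 in wild type lesions. Of the 10 genes, 6 had their lowest value on transgenic replicate 1. The share was 22.3% over all probe sets and 50.6% over genes with a mean level of at least 7, so this count was near that of bright genes. Sox9, which specifies astrocyte fate, stood at 7.22, 7.93 and 7.51 in transgenic lesions, against 8.16, 8.03 and 8.05 in wild type lesions, with an unadjusted p in limma of 0.032 and an adjusted p of 0.524. Mlc1, a membrane protein of endfeet, differed by -0.30. In transgenic lesions 5 genes of the list had lower and 5 had higher means, and the median of the 10 differences was -0.15. The lower ones were Sox9, Mlc1, Gja1, Gfap and Ndrg2. In 3 of the 10, Sox9, Mlc1 and Gja1, the groups did not overlap, against 16.1% of all probe sets, 7.6% lower in transgenic lesions. The higher ones, all with overlapping groups, were S100b, a calcium-binding protein, at a difference of 0.38, Slc7a10 at 0.18, Fgfr3 at 0.12, Aldh1l1, a folate enzyme used as a general astrocyte marker, at 0.08, and Aldoc at 0.00167. Gfap, named because it defines the targeted cells, stood at 8.91, 8.82 and 9.24 in transgenic lesions, against 9.83, 9.18 and 9.09 in wild type lesions, and transgenic replicate 1 was not its lowest array. In the reactive astrocyte list, transgenic replicate 1 was the lowest array for 0 of 10 genes. Their mean was 6.97, 6.41 and 6.51 in transgenic lesions, against 7.30, 6.93 and 6.56 in wild type lesions, so that transgenic replicate 1 was the highest of its group. S1pr3, a lipid receptor raised in reactive astrocytes, differed by -0.71 and the intermediate filament Vim by -0.67, with adjusted p-values in limma of 0.540 and 0.561.

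Markers of other cell types differed in how they followed the groups. For myelin and oligodendrocytes the mean was 8.56, 9.09 and 8.81 in transgenic lesions, against 9.99, 9.57 and 9.65 in wild type lesions. The groups did not overlap in 9 of 9 genes, all lower, against 7.6% of all probe sets separate and lower. Oligodendrocyte precursor genes averaged 6.41, 6.58 and 6.51 in transgenic lesions, against 6.89, 6.69 and 6.78 in wild type lesions. Neuroblast genes averaged 5.70, 5.92 and 5.81 in transgenic lesions, against 6.06, 6.47 and 6.64 in wild type lesions. Both list means were also separate and lower, with single genes separate in 0 of 6 and 2 of 5. Cortical neuron genes averaged 7.75, 8.48 and 8.09 in transgenic lesions, against 7.68, 7.72 and 7.61 in wild type lesions, so that the list means were separate in the other direction. In the lists that follow the means of the groups overlapped. General neuron genes averaged 9.01, 9.41 and 9.27 in transgenic lesions, against 8.79, 8.95 and 9.08 in wild type lesions. Microglia and macrophage genes averaged 7.996, 7.44 and 7.39 in transgenic lesions, against 8.84, 7.83 and 7.51 in wild type lesions. Of these 8 genes, 7 had lower and 1 had a higher mean in transgenic lesions. An unadjusted p under 0.05 in limma was seen for 0 of 8, against 8.87% of all probe sets. The endothelial mean was 5.71, 6.28 and 6.32 in transgenic lesions, against 5.99, 6.00 and 6.10 in wild type lesions, with 2 genes lower and 4 higher. Transgenic replicate 1 was the lowest array for 5 of 6, against 22.3% of all probe sets and 50.6% of genes with a mean level of at least 7. Ependymal genes averaged 5.76, 5.37 and 5.47 in transgenic lesions, against 6.04, 6.34 and 5.68 in wild type lesions. All 4 measured ependymal genes had lower means, with the groups separate in 1 of 4, against 7.6% of all probe sets separate and lower. Striatal neuron genes averaged 6.02, 6.31 and 5.95 in transgenic lesions, against 6.03, 7.87 and 8.48 in wild type lesions, so that wild type replicate 1 was as low as the transgenic arrays. The part of sex, cell content and the neuron types caught in the lesion in the levels of the 8 genes was not tested.

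**Figure D4:**
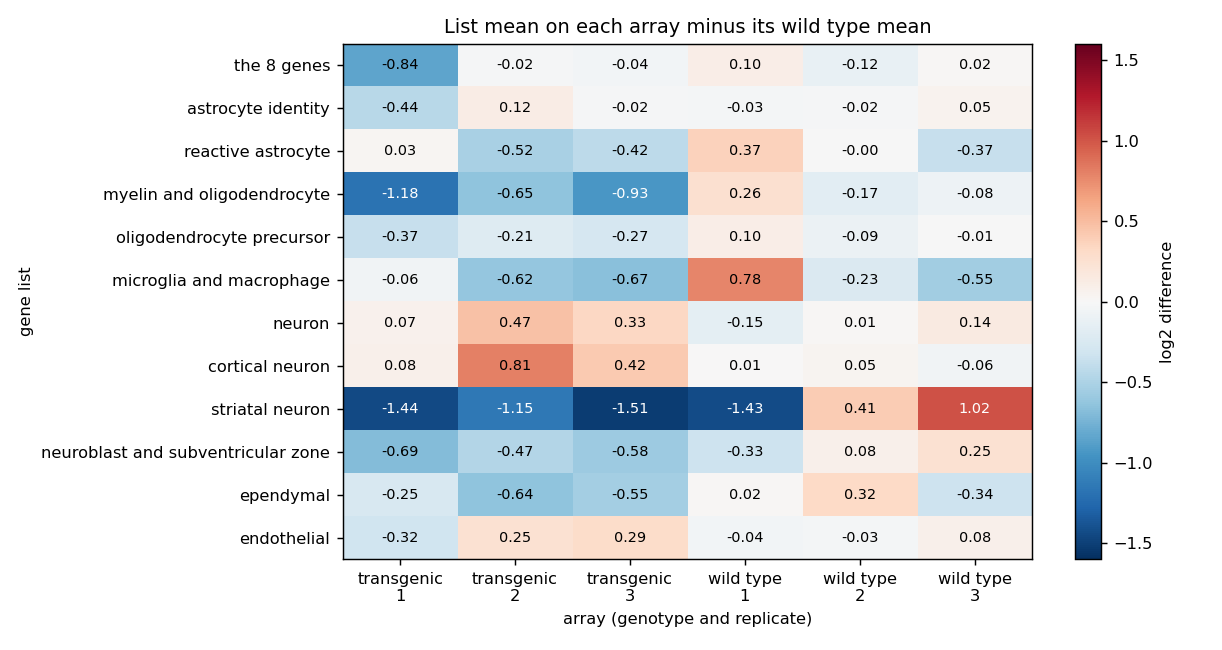
Mean of each gene list on each array minus the wild type mean of the list (log2, colour and number), for the 8 genes and the 11 marker lists, with transgenic arrays left of wild type arrays. The 8 genes are lowest on transgenic replicate 1, as are astrocyte identity, myelin, oligodendrocyte precursor, neuroblast and endothelial genes. Myelin, oligodendrocyte precursor and neuroblast genes are below every wild type array on all 3 transgenic arrays, and cortical neuron genes are above every wild type array.

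Other genes of the same pathways were read from 5 lists of 61 genes, of which 51 had a probe set with a single symbol. No gene of these lists passed the adjusted threshold in limma. At an unadjusted p under 0.05 there were 3 lower and 3 higher in transgenic lesions, 11.8% of the 51, and the groups did not overlap for 5 lower and 3 higher, 15.7%. The shares over all probe sets were 8.87% and 16.1%, so these counts were near the background. Transgenic replicate 1 was the lowest array for 25 of the 51 genes, 49.0%. The share was 22.3% over all probe sets and 50.6% over genes with a mean level of at least 7.

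Potassium and sodium handling held the pair of genes with the smallest p-values. Fxyd7, a small regulator of the sodium-potassium pump found in brain, stood at 9.74, 10.03 and 9.54 in transgenic lesions, against 8.86, 8.97 and 9.21 in wild type lesions, a 1.69-fold higher level (difference 0.76, SE 0.18, unadjusted p in limma 0.00361, adjusted 0.401). Slc12a2, the cotransporter that brings sodium, potassium and chloride into cells, stood at 8.53, 8.41 and 8.69 in transgenic lesions, against 9.72, 8.98 and 9.27 in wild type lesions, 1.71-fold lower (difference -0.78, SE 0.21, unadjusted p in limma 0.00745, adjusted 0.438). In both genes the groups did not overlap, and transgenic replicate 1 did not stand apart. Kcnj2, another inward rectifier, differed by -0.37, and Kcnj16, a channel subunit that assembles with the product of Kcnj10, by 0.27. Of the 11 measured genes of this list 7 were lower and 4 higher, with a median difference of -0.15.

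In the list for water channels, endfoot anchoring and volume, 10 of 16 measured genes were lower and 6 higher, with a median difference of -0.04. Hepacam, an adhesion molecule that binds the Mlc1 protein at endfeet, stood at 7.63, 8.57 and 8.42 in transgenic lesions, against 8.93, 8.79 and 8.76 in wild type lesions (difference -0.62, unadjusted p in limma 0.0432, adjusted 0.552). Gja1, the main connexin of astrocytes, differed by -0.36. In Hepacam, Mlc1 and Gja1 the transgenic values were all below the wild type values, with replicate 1 the lowest. Aqp11, a water channel of intracellular membranes, ran the other way, at 7.12, 7.11 and 6.81 in transgenic lesions, against 6.16, 6.42 and 6.74 in wild type lesions (difference 0.57, unadjusted p in limma 0.0203, adjusted 0.493).

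Glutamate and glutamine handling had 9 of 14 measured genes lower and 5 higher, with a median difference of -0.04 and no unadjusted p under 0.05. Slc38a3, a glutamine carrier of astrocytes, stood at 7.50, 8.26 and 8.20 in transgenic lesions, against 8.42, 8.09 and 8.27 in wild type lesions, with the low value again on transgenic replicate 1. Slc38a1, a glutamine carrier of neurons, differed by -0.29 (SE 0.21), Slc7a11, which exchanges cystine for glutamate, by 0.40 (SE 0.34), and Slc1a6, a glutamate transporter of Purkinje neurons, by 0.19 (SE 0.15).

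Of the 5 measured bicarbonate and pH genes, the carbonic anhydrases went apart. Car2, abundant in oligodendrocytes, stood at 9.25, 9.18 and 8.71 in transgenic lesions, against 10.02, 9.38 and 9.73 in wild type lesions (difference -0.66, adjusted p in limma 0.493). Car4, a membrane-bound form, stood at 7.21, 7.57 and 7.30 in transgenic lesions, against 6.88, 6.95 and 6.95 in wild type lesions (difference 0.43, adjusted p in limma 0.497). The groups did not overlap in either gene. The anion exchanger Slc4a2 differed by -0.34 and Slc4a10, a neuronal bicarbonate transporter, by 0.26. The 5 measured genes of GABA and glycine uptake and breakdown differed little: Slc6a12 by -0.17, Abat, the GABA transaminase, by 0.19, Aldh5a1 by -0.07 and Maob by 0.05, with adjusted p-values in limma from 0.878 to 0.996 over the list.

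**Figure D5:**
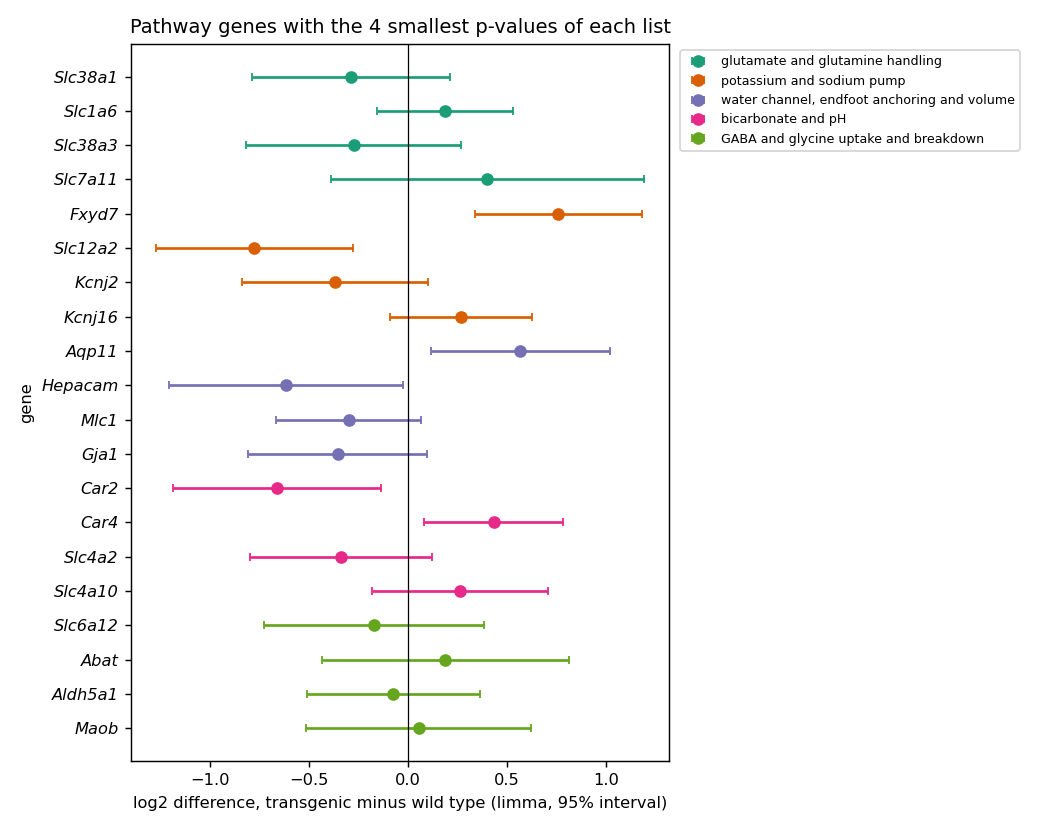
Log2 difference, transgenic minus wild type (horizontal axis), with its 95% interval from limma, for the 4 genes with the smallest p-values in each of the 5 pathway lists, coloured by list. Intervals of Fxyd7, Slc12a2, Aqp11, Hepacam, Car2 and Car4 do not include 0, and these lie on both sides.

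The genes whose profile over the 6 arrays was most like that of each member were sought among the 5760 genes with a mean level of at least 7. For Slc1a3 the most alike was Ntrk2, the receptor of the neurotrophin BDNF (Pearson r = 0.999), for Slc1a2 Tbkbp1 (0.998), for Slc6a11 Enah (0.999) and for Kcnj10 Txndc16 (0.998). For Atp1b2 they were Igfbp5 (0.991) and Slc38a3 (0.990), for Slc4a4 Bcl9l (0.993) and Src (0.990), for Aqp4 Spr (0.997) and Ccdc50 (0.976), and for Glul Dusp11 (0.983) and Zfp362 (0.963). The second gene was A230045G11Rik for Slc1a3 (0.996), Acbd5 for Slc1a2 (0.997), Dok5 for Slc6a11 (0.998) and Dip2b for Kcnj10 (0.997). All points share 6 arrays on which transgenic replicate 1 is low, and high values are common in such a set: 316 genes exceeded 0.95 for Slc6a11, 221 for Slc1a2 and 4 for Aqp4. They are given as a description only.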

How the data were processed

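Total RNA of 6 macrodissected lesions was measured on 1 Affymetrix array each. Per the submitters' processing notes, the authors made the deposited intensities with RMA, run in Affymetrix Expression Console. They were on a linear scale, with a lowest value of 3.73, and were turned to log2 with no pseudocount. For versions, build and detection calls, nothing is stated in the labels or the file. The platform annotation gave 1 symbol for 23521 of 41345 probe sets, several for 1814 and none for 16010; members were named from the first kind only, and all 8 matched a RefSeq gene number of assembly GRCm38.p6.

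All probe sets entered limma (version 3.58.1, R 4.3.3) with lmFit and eBayes, no covariate, two-sided tests and Benjamini-Hochberg adjustment over the whole table at 0.05; the step was tested on simulated data. The number of arrays limits the precision, with a median 95% half-width of 0.45 over all probe sets. Most of the 8 genes were less precise, with SEs from 0.18 to 0.32, against a median SE of 0.19 over all probe sets. The 8 members and the lists were chosen with earlier results of these data known. Named genes were the 8 members, the 4 of smallest unadjusted p per pathway list, up to 2 per marker list and the 2 genes most correlated with each member. Alternatives covered normalization, a pseudocount, a filter on dim probe sets, array weights, sex, the probe set choice, the replicate block and leaving out each array. Female arrays alone and the gap of transgenic replicate 1, before and after quantile normalization, were chosen after seeing the data.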

Additional observations from a re-analysis of the deposited data

How the results depend on the processing

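No alternative brought any of the 8 genes past the adjusted threshold. Over 120 combinations of gene and setting the adjusted p in limma ran from 0.154 to 0.9999. Of all 41345 probe sets, 2611 passed that threshold with array weights and 335 without transgenic replicate 2. Some also passed with sex as a covariate and among female arrays alone, which rest on 1 transgenic array. The direction held in 104 of the 120 combinations and turned in 16, never for Slc1a3, Kcnj10, Atp1b2 or Slc4a4. Not all of these could turn or were separate checks. The replicate block and the filter on dim probe sets leave every difference as it was. The mean of all probe sets changes Glul alone. Sex as a covariate and female arrays alone gave the same differences, so these were counted more than once. Leaving out 1 array gave ranges of -0.50 to 0.0789 for Slc1a2, -0.24 to 0.00893 for Glul, -0.40 to 0.0907 for Aqp4 and -0.35 to 0.15 for Slc6a11. The positive ends were those without transgenic replicate 1, except for Aqp4 without wild type replicate 1. With array weights, which rested mostly on transgenic replicate 3 (weight 7.67, against 0.26 and 0.28 for the other transgenic arrays), Slc1a2 was 0.11, Aqp4 0.0177 and Slc6a11 0.0527. With sex as a covariate or among female arrays alone, which rest on transgenic replicate 2, Slc1a2 was 0.000111, Glul 0.0814, Aqp4 0.0997 and Slc6a11 0.20. The median over the 8 genes stayed between -0.45 and -0.02.

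The count at an unadjusted p under 0.05 was 1 of 8 after quantile normalization, with array weights and with the replicate block, where 9.15%, 26.1% and 7.25% of all probe sets passed; without single arrays it was 0 to 1, against 4.91% to 12.5%. The cause was not tested. The count of genes whose groups did not overlap was 1 of 8 after quantile normalization and among female arrays, against 16.6% and 71.6% of all probe sets, and 0 to 3 without single arrays, against 22.4% to 33.1%. The highest, 3, was without wild type replicate 2, where the share was 22.7%. Over all probe sets, the deviations of same-numbered arrays from their group means correlated at r from -0.10 to 0.01. For arrays with different numbers r was -0.07 to 0.11. A correlation over all probe sets cannot show whether some genes shared a batch, and this was not tested. The replicate block gave 1 member, Slc4a4, at an unadjusted p in limma of 0.0375. Slc1a2 minus Slc1a3 kept its sign, at 0.07 to 0.30. No detection calls or signal over background were available.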
